A study of Homo sapiens with 8 samples.

Results

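Collagens are the proteins that give tissues their structural scaffold. Each collagen molecule winds 3 chains into a triple helix. Where a molecule is built of chains from different genes, those chains have to be made together. Fibrillar collagens build the fibres of connective tissue, network collagens (above all type IV) form the sheet of the basement membrane under epithelia, and type VI makes beaded filaments. Fibril-associated collagens (FACIT) coat fibrils, type VII anchors the basement membrane, and others span the cell membrane or carry a cleavable, endostatin-like end. Epithelial cells normally make mainly basement membrane and transmembrane collagens, whereas connective tissue cells make mainly fibrillar ones. Here 43 collagen genes, all rows whose gene name has the form COL, number, A, number, were taken from 48405 rows of each of 2 tables. No symbol had more than 1 row.

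The RNA came from HCC4006 and HCC827, established human lung cancer lines with activating EGFR mutations. Each line was present as a control culture carried in DMSO, the drug's solvent, and as a culture that grew in 3 µM gefitinib, an inhibitor of the EGFR kinase. Each of the 4 groups had 2 libraries, called A and B after the column names, 8 in all, and nothing says that they came from separate cultures, so p-values measure only the spread between these libraries, which may be technical. Only the resistant cultures are labelled with gefitinib, so resistance and the presence of the drug cannot be told apart. The resistant cultures are populations adapted by culture in the drug. Levels are the authors' FPKM, fragments counted per length of transcript and per size of library, so genes can be compared with each other. Whether the tables were normalized together is not known, so changes were tested within a line and levels are only set side by side across lines.

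Depth is unknown, since FPKM keep no read totals, and between 17406 and 19333 rows lay above 0 in a library. In these tables an exact 0 need not mean absence, because abundant genes are listed at 0 in whole groups. Such values are given as "listed at 0", and no fold change is read from them. The labelled epithelial cells were recognisable in both lines: the summed FPKM of 5 epithelial markers was 9503 to 15844 in the DMSO libraries of HCC4006, 1629 to 1802 in its resistant libraries, and 10502 to 17492 over the libraries of HCC827. Of 6 fibroblast markers, THY1, FAP and PDPN were listed at 0 in all 8 libraries. PDGFRB measured 2.57 and 0.764 FPKM in DMSO HCC4006 and 21.9 and 26.2 in resistant HCC4006. DCN reached 1.51 FPKM in DMSO HCC827 library A, and LUM 1.82 in DMSO HCC4006 library B. In bulk RNA, fewer cells of a type and less RNA per cell cannot be told apart.

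The lines differed in which collagens they listed above 0. Of the 43 genes, 28 were above 0 in at least 1 library, 26 of them in HCC4006 and 21 in HCC827, with 19 in both. The 15 listed at 0 in all 8 libraries were COL2A1, COL3A1, COL4A3, COL5A3, COL6A6, COL9A1, COL10A1, COL11A1, COL14A1, COL19A1, COL20A1, COL22A1, COL23A1, COL25A1 and COL29A1 (an older name of COL6A5). They include COL2A1 and COL10A1, both among the collagens of cartilage, and COL3A1, a main collagen of connective tissue. These 15 make up 34.9% of the collagens, against 53.6% of all rows. For COL10A1 the same stretch of genome gave signal for NT5DC1 in every library (89.4 to 242 FPKM), so a neighbour was measured there while COL10A1 stood at 0.

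The summed collagen level lay several times higher in HCC4006 than in HCC827. It was a small part of all FPKM, 0.0462% to 0.105% in the HCC4006 libraries and 0.00851% to 0.0154% in those of HCC827. The scale of these values is high, since the median of the rows above 0 was 53.6 to 59.0 FPKM in a library. In HCC4006 the sum was 3487 and 2577 FPKM in DMSO cells and 4037 and 5726 FPKM in resistant cells. These sums count COL18A1 as 0 in DMSO cells and at 270 and 346 FPKM in resistant cells. SLC19A1, on the same locus, was listed at 0 in the same DMSO libraries, and whether these zeros are failed estimates was not tested. The ratio of resistant to DMSO means was 1.61, with groups that did not overlap. The means were 3032 ± 643 and 4881 ± 1194 FPKM (SD, n = 2). The exact two-sided permutation test gave p = 0.333, the smallest that 2 against 2 libraries allow. In HCC827 the sum was 667 and 437 FPKM in DMSO and 813 and 495 in the resistant libraries, a ratio of 1.19 with overlapping groups (exact permutation p = 0.667). That ratio turned below 1 without DMSO library B (0.981) or resistant library A (0.898).

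Class by class, HCC4006 was dominated by fibrillar and basement membrane chains, and HCC827 by basement membrane, transmembrane and multiplexin chains. Fibrillar genes held 40.4% and 33.0% of the summed collagen FPKM in DMSO HCC4006 and 37.9% and 36.5% in resistant HCC4006. In HCC827 their share was 8.14% and 13.1% in DMSO and 2.21% and 4.28% in the resistant libraries. The basement membrane share was lower in both resistant libraries of each line: 43.0% and 58.9% against 29.7% and 30.6% in HCC4006, and 37.3% and 48.3% against 24.6% and 28.6% in HCC827. The summed type IV level itself overlapped between the HCC4006 groups (1498 and 1517 FPKM in DMSO, 1199 and 1754 in the resistant libraries). FACIT genes went the other way, to higher shares in the resistant libraries of both lines: 6.77% and 1.95% against 9.73% and 9.29% in HCC4006, and 2.98% and 1.67% against 18.4% and 11.3% in HCC827. The largest FACIT gene was COL12A1 in both resistant HCC4006 libraries and COL9A2 in both resistant HCC827 libraries, and COL9A2 also led in DMSO HCC4006 library A. The zeros of COL18A1 put the multiplexin share at 0% in DMSO HCC4006, against 6.70% and 6.05% in its resistant libraries, and so enter every other share there. Shares are descriptions of single libraries and were not tested.

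**Figure D1:**
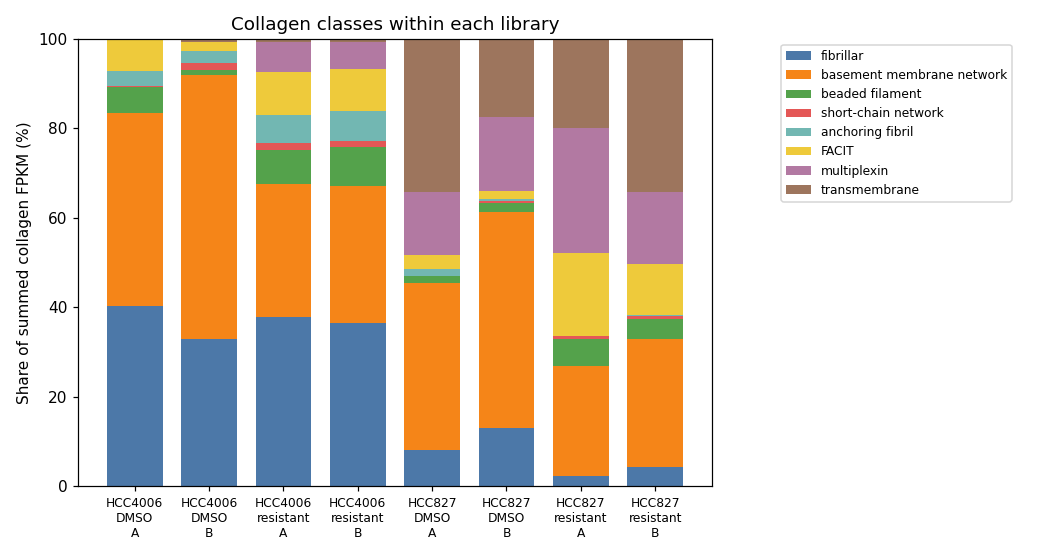
Stacked bars give the share of the summed collagen FPKM (in percent, vertical axis) held by each of 8 collagen classes in each of the 8 libraries (horizontal axis). Fibrillar genes hold 33.0% to 40.4% in HCC4006 and at most 13.1% in HCC827, where transmembrane genes hold 17.5% to 34.2%.

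Few genes carried most of the signal. COL4A2 and COL5A1 together held 73.8% and 79.9% of the collagen FPKM of DMSO HCC4006 and 61.2% and 60.4% of that of resistant HCC4006, where COL5A1 had become the higher of the pair and COL12A1 the third. In HCC827 the leading gene differed between libraries: COL17A1 in DMSO A (31.7%) and resistant B (33.0%), COL4A2 in DMSO B (40.0%) and COL18A1 in resistant A (27.8%).

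**Figure D2:**
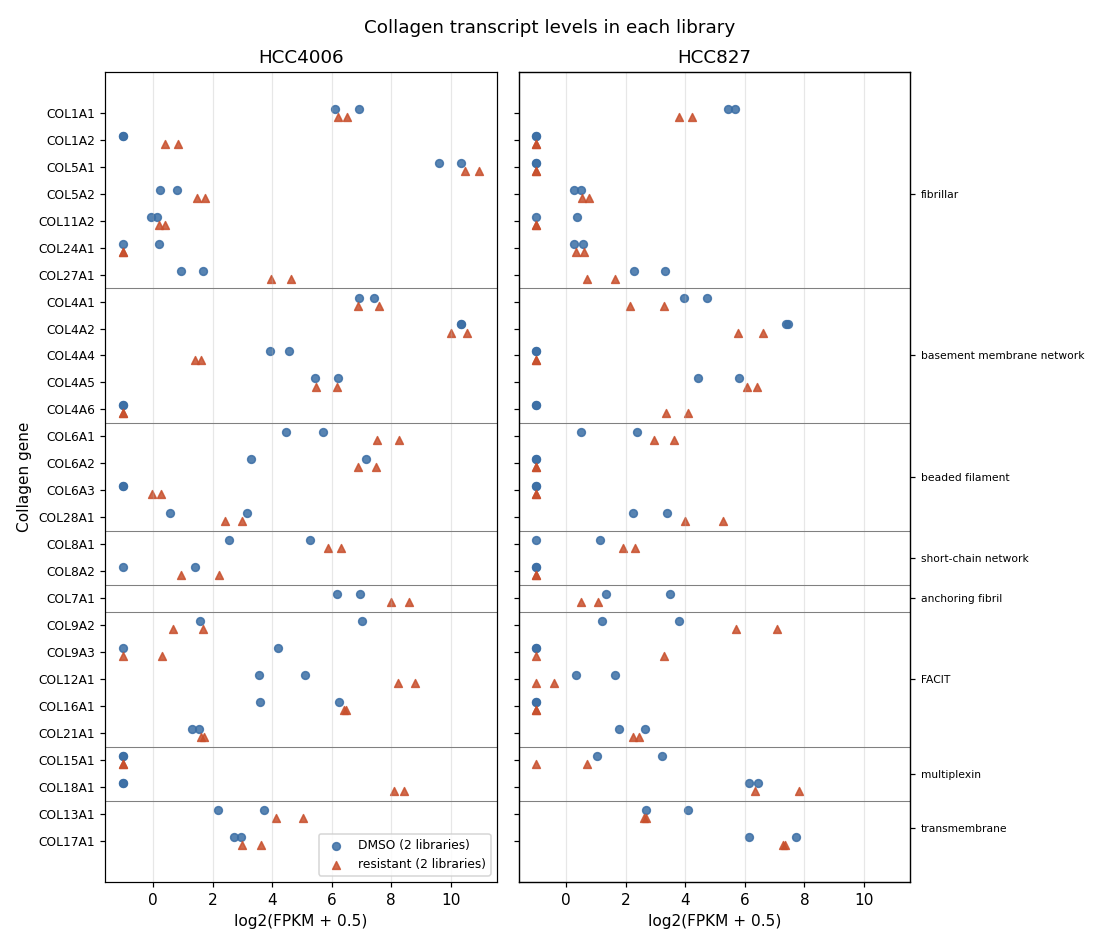
Each point is a library, with log2(FPKM + 0.5) on the horizontal axis, circles for DMSO and triangles for resistant cultures, and the 28 collagens above 0 in some library in rows ordered by class. A value of 0 FPKM plots at the left edge. COL5A1, COL6A2 and COL16A1 are listed at 0 in all 4 HCC827 libraries, while COL12A1 sits far to the right in resistant HCC4006 alone.

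Resistant against DMSO was tested with limma on log2(FPKM + 0.5), over all rows with a mean of at least 0.5 FPKM in the line, and a gene was called at a Benjamini-Hochberg adjusted p below 0.05. In HCC4006, 24 collagens were tested and 4 were called: COL12A1, COL27A1 and COL18A1 higher and COL4A4 lower. Of all tested rows 9.36% were called (6.37% higher and 2.98% lower), so 3 of 24 higher and 1 of 24 lower are small counts beside that background. The log2 fold changes of the collagens leaned upward, with 19 of 24 positive and a median of 0.97, against 49.8% positive and a median of −0.01 over all tested rows. Both resistant libraries lay above both DMSO libraries for 14 of the 24 and below for 1, whereas 26.6% of all rows lay above and 26.5% below. Some members passed the filter only through the group in which they were high, so these counts describe the list and test nothing. Over the 20 members above 0 in all 4 libraries the median was 0.80, and limma called none of them (5 had an unadjusted p below 0.05), while 0.534% of all such rows were called.

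Within a group, the collagens leaned toward 1 of its 2 libraries. In resistant HCC4006, library B was the higher for 21 of 24 members, with a median log2 ratio of A to B of −0.57, against −0.01 over all rows above 0 in both. In DMSO HCC4006, library A was the higher for 15 of 20 (median 0.75, against 0.04 over all rows). The DMSO libraries of HCC827 showed the same for 11 of 17 (0.99 against 0.11). The summed collagen levels given above carry this spread, and its source was not tested.

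COL12A1, the FACIT chain of type XII that bridges collagen fibrils to other matrix proteins (hg19 chromosome 6, 75794041 to 75915767), showed the widest change of the collagens above 0 in all libraries of HCC4006. DMSO libraries A and B held 11.2 and 34.2 FPKM of it, resistant libraries A and B 297 and 444 FPKM. The groups stood far apart, with DMSO library A lowest. The log2 fold change was 4.17 (SE 0.63, limma adjusted p = 0.0401). In HCC827 the gene was barely present, at 0.743 and 2.59 FPKM in DMSO and 0.245 and 0 in the resistant libraries (log2 fold change −1.68, SE 0.82, adjusted p = 0.378). The HCC4006 call was lost over rows above 0 alone (adjusted p = 0.0731), without DMSO library A (0.0681), without resistant A (0.421) and without resistant B (0.472).

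COL27A1 codes for a fibrillar chain best known from cartilage (chromosome 9, 116917839 to 117074791). It rose in HCC4006, where the DMSO libraries gave 2.73 and 1.44 FPKM and the resistant ones 15.1 and 24.2. The estimated log2 change was 2.97 (SE 0.45, adjusted p = 0.0393). In HCC827 the order was the opposite, with 9.56 and 4.35 FPKM in DMSO above 2.65 and 1.11 in resistant cells. That log2 change was −1.63 (SE 0.66, adjusted p = 0.3). The HCC4006 call was lost with the rows above 0 alone (0.0904) and without any one library (0.0855 without DMSO A, 0.0896 without DMSO B, 0.295 without resistant A, 0.368 without resistant B).

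The promoters of these 2 genes, the collagens above 0 that rose, are shown so that their plain features can be compared with those of the type IV genes printed further on. Each sequence covers 250 bases before to 50 after the gene's start, from RefSeq on GRCh38.p14, another build than the tables' hg19, and 31 of the 43 genes had such a window. Capitals mark every match, on either strand, to any of 4 motifs. The first is the GC box, spelled GGGCGG. The second has the letters CCAAT and takes its name from them. The TATA box was searched as TATAAA. Last comes CACCTG, an E-box that repressors of the ZEB family can bind, and overlapping matches run together. The window of COL12A1 is chr6:75206004-75206303, minus strand, and that of COL27A1 is chr9:114155287-114155586, plus strand.
COL12A1: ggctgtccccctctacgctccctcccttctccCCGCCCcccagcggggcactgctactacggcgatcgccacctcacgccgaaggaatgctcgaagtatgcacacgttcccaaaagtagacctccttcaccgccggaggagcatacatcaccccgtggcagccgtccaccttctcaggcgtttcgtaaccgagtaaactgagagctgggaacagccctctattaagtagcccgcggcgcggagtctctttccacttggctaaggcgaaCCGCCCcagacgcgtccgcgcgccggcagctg
COL27A1: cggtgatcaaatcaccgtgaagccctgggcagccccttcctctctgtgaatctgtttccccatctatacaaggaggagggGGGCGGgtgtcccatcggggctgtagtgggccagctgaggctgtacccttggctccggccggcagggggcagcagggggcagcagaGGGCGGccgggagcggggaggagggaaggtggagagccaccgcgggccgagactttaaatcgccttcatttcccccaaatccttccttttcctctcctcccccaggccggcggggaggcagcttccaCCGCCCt
COL12A1 held 2 GC boxes and COL27A1 held 3, with none of the other motifs in either window, and G and C made up 63.3% and 65.7% of the bases. The collagen windows, 43 in all, came from 31 genes, since some genes had several windows. A GC box was found in 24 of the 43 collagen windows (55.8%) and in 45% of all 35116 promoter windows. By gene, 21 of the 31 had a GC box in at least some window. The CACCTG E-box was found in 5 of the 43 windows (11.6%), from 5 of the 31 genes, and in 20.6% of all windows. These 5 include COL4A3 and COL4A4, whose match is the same bases. The AP-1 site TGACTCA, also searched, was in none of the 43 collagen windows and in 4.95% of all. A match describes these letters and is not evidence of binding.

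COL18A1 encodes type XVIII, a multiplexin of basement membranes whose end can be released as endostatin (chromosome 21, 46825051 to 46964316). It was listed at 0 in both HCC4006 DMSO libraries and at 270.4 and 346 FPKM in the resistant ones, and limma called it (adjusted p = 0.000519). SLC19A1, a folate transporter gene listed on the same stretch of genome, was at 0 in the same 2 libraries and at 219 and 198 FPKM in the resistant ones. Whether these zeros are failed estimates was not tested, and no fold change is read from them. In HCC827 both genes were above 0 throughout. There COL18A1 measured 86.3 and 70.6 FPKM in DMSO and 226 and 80.0 in the resistant libraries, and its log2 change of 0.78 (SE 0.57, adjusted p = 0.536) did not pass the test. COL15A1, the other multiplexin, was listed at 0 in HCC4006 and reached 8.77 and 1.57 FPKM in DMSO HCC827 and 1.12 and 0 in its resistant libraries.

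Type IV collagen, the sheet-forming collagen of basement membranes, comes from 6 genes that lie in 3 head-to-head pairs, each pair transcribed outward from a shared stretch of promoter. COL4A1 and COL4A2 make the general form, COL4A3, COL4A4 and COL4A5 the form known from kidney and lung, and COL4A5 with COL4A6 a form of some epithelia.

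COL4A1 and COL4A2 share the locus chromosome 13, 110801317 to 111165374 in the tables. COL4A2 measured 1291 and 1282 FPKM in DMSO HCC4006 and 1034 and 1489.9 FPKM in resistant HCC4006, with overlapping groups. COL4A1 measured 119.3 and 170.2 FPKM against 118 and 190.5, again overlapping. The log2 fold changes were −0.05 (SE 0.26, adjusted p = 0.926) and 0.07 (SE 0.36, adjusted p = 0.922), and the sign for COL4A2 turned under quantile normalization (0.068).

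In HCC827 every resistant value of this pair lay under every DMSO value. COL4A2 stood at 167 and 175 FPKM in DMSO and 96.9 and 54.2 under resistance, with an estimated log2 change of −1.23 (SE 0.38, adjusted p = 0.198). COL4A1 stood at 25.8 and 15.2 FPKM and then 9.14 and 3.90, with an estimate of −1.64 (SE 0.57, adjusted p = 0.242). Neither passed the test. COL4A2 stood 6.49 to 13.9 times above COL4A1 over the 8 libraries, although the protein needs more of the COL4A1 chain, and the split of fragments between rows on a shared locus is uncertain.

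COL4A4 (chromosome 2, 227867426 to 228029266) fell in HCC4006. It measured 14.7 and 23.04 FPKM in DMSO and 2.56 and 2.15 FPKM in resistant cells, which gave a log2 change of −2.73 (SE 0.36, adjusted p = 0.0273). Its call was lost over rows above 0 alone (0.0837) and without resistant library A (0.308) or B (0.337). In HCC827 it was listed at 0 in all 4 libraries. Its partner COL4A3 was listed at 0 in all 8, but in HCC4006 so was MFF, a mitochondrial fission gene on the same locus. In HCC827 MFF reached 341 to 595 FPKM while COL4A3 stayed at 0.

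COL4A5 (chromosome X, 107683073 to 107940775) was above 0 in all libraries. It measured 73.7 and 42.4 FPKM against 44.0 and 71.9 in HCC4006, where the groups overlapped, and 55.3 and 20.8 against 84.1 and 67.2 in HCC827, where the resistant libraries were higher (log2 fold change 1.13, SE 0.55, adjusted p = 0.377). COL4A6 (chromosome X, 107334897 to 107682727) was listed at 0 in HCC4006 and in DMSO HCC827, and at 9.77 and 16.5 FPKM in resistant HCC827. It was the only one of 20 tested collagens that limma called in HCC827 (adjusted p = 0.0128), where 6.8% of all tested rows were called, 5.13% higher. ATG4A, an autophagy gene on the same locus, showed the same zeros and 40.5 and 44.6 FPKM in resistant HCC827. The COL4A6 call was lost without DMSO library A (0.123) or B (0.129), fits in which limma called no row at all.

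The promoter windows of the pairs are printed to show how closely the partners sit, since 1 partner of a pair could be listed well above 0 while the other stood at 0. Wherever this occurred, another gene on the locus of the partner at 0 was also at 0 (MFF for COL4A3, ATG4A for COL4A6). Whether these zeros are failed estimates was not tested. Capitals are as above. COL4A2 is shown for its pair (chr13:110307034-110307333, plus strand), since 226 of its bases also lie in the window of COL4A1, whose start lies 127 bases away.
COL4A2: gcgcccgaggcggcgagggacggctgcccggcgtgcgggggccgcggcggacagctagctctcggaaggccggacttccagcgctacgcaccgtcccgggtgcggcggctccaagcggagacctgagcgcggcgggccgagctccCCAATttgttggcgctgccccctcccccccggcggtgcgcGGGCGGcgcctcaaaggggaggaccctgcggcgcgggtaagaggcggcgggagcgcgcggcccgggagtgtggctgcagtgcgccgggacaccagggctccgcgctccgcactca
The starts of COL4A4 and COL4A3 lie 419 bases apart, and 82 bases belong to both windows (chr2:227164156-227164455, minus strand, and chr2:227164374-227164673, plus strand). The E-box match is the same bases read from either side.
COL4A4: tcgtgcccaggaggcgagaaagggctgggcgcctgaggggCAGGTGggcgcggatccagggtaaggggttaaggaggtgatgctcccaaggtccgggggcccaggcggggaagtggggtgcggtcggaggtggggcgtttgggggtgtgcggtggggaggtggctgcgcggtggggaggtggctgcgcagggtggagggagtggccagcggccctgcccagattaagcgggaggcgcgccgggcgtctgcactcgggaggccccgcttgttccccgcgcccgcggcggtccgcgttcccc
COL4A3: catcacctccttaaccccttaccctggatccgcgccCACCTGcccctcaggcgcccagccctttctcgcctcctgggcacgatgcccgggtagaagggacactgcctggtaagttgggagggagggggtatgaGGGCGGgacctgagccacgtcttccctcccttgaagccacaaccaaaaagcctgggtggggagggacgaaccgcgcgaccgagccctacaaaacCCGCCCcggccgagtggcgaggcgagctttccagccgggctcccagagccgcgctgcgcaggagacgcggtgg
The nearest start of COL4A6 lies 380 bases from that of COL4A5, with 121 bases in both windows (chrX:108439409-108439708, minus strand, and chrX:108439588-108439887, plus strand).
COL4A6: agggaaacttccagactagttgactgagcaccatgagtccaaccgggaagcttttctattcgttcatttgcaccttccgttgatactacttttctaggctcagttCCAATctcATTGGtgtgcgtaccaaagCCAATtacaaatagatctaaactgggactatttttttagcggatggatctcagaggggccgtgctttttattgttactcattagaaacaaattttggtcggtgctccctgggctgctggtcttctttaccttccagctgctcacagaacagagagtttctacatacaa
COL4A5: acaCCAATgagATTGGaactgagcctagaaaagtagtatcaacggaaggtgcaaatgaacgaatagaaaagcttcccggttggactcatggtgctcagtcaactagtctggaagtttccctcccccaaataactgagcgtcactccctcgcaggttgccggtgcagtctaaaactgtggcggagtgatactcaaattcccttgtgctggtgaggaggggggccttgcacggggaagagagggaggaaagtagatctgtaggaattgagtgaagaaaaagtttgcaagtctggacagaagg
G and C made up 77.7% of the COL4A2 window, 74.0% of that of COL4A4 and 67.7% of that of COL4A3, but 49.3% of that of COL4A5 and 43.7% of that of COL4A6. GC boxes were found in the windows of COL4A2 and COL4A3, and none in those of COL4A4, COL4A5 and this start of COL4A6. The latter 2 held 2 and 3 CCAAT boxes, a motif found in 34.6% of all windows. Both matches of COL4A5 lie in the stretch shared with COL4A6 and are the same bases as 2 of its 3.

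Among the fibrillar genes, COL5A1 had the highest level. It encodes the chain of type V that helps start fibrils (chromosome 9, 137533619 to 137736686). It measured 1282 and 778 FPKM in DMSO HCC4006 and 1437 and 1969.9 FPKM in resistant HCC4006, higher in both resistant libraries but with a log2 fold change of 0.75 (SE 0.35) that did not pass the test (adjusted p = 0.33). In HCC827 it was listed at 0 in all 4 libraries. COL5A2, its partner in the type V molecule, was near the floor: 1.24 and 0.679 FPKM against 2.30 and 2.84 in HCC4006, and 0.708 and 0.909 against 0.942 and 1.22 in HCC827. COL5A1 thus stood 625 to 1146 times above COL5A2 in HCC4006, and COL5A3 was listed at 0 everywhere.

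COL1A1, the main chain of type I collagen of bone, skin and tendon (chromosome 17, 48260649 to 48278993), was present in both lines. It measured 119.8 and 69.1 FPKM in DMSO HCC4006 and 73.9 and 91.7 in resistant HCC4006, with overlapping groups (log2 fold change −0.14, SE 0.36, adjusted p = 0.843). In HCC827 it stood at 42.6 and 50.9 FPKM in DMSO and at 13.4 and 18.1 in the resistant libraries, without overlap. The log2 fold change was −1.55 (SE 0.35, adjusted p = 0.0966), and it passed (0.0486) only when all 8 libraries were fitted together. COL1A2, the second chain of the type I molecule, was listed at 0 in 6 libraries and at 0.811 and 1.29 FPKM in resistant HCC4006. The other fibrillar genes above 0, COL11A2 and COL24A1, reached at most 0.834 and 1.003 FPKM.

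Type VI collagen, whose 3 classical chains come from COL6A1, COL6A2 and COL6A3, was carried by the first 2 in HCC4006. In HCC827 only COL6A1 of these was listed above 0. COL6A1 (chromosome 21, 47401650 to 47424964) measured 52.0 and 21.5 FPKM in DMSO HCC4006 and 184 and 303 FPKM in resistant HCC4006, which gave a log2 change of 2.80 (SE 0.56, adjusted p = 0.0751). It was also higher in resistant HCC827, at 0.900 and 4.76 FPKM against 11.8 and 7.17 (log2 fold change 1.84, SE 0.80, adjusted p = 0.33). Neither line passed the test.

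COL6A2 (chromosome 21, 47518010 to 47552763) did not separate the groups in HCC4006, because its DMSO libraries lay 15.4-fold apart. It measured 143 and 9.28 FPKM in DMSO and 116 and 179 FPKM in the resistant libraries (log2 fold change 1.95, SE 1.44, adjusted p = 0.509). In HCC827 it was listed at 0 throughout. COL6A3 was listed at 0 in 6 libraries and at 0.470 and 0.693 FPKM in resistant HCC4006. COL28A1, a related chain, was higher in both resistant HCC827 libraries (9.97 and 4.22 against 38.2 and 15.3 FPKM) and overlapped in HCC4006 (8.31 and 0.991 against 4.89 and 7.47).

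COL7A1 encodes the anchoring fibril collagen that fastens the basement membrane to the tissue below (chromosome 3, 48601505 to 48632700). Its row also names a microRNA, hsa-mir-711. It measured 123 and 71.5 FPKM in DMSO HCC4006 and 255 and 386 FPKM in resistant HCC4006, for a log2 change of 1.74 (SE 0.40, adjusted p = 0.101). In HCC827 the order was reversed and the level low: 10.8 and 2.01 FPKM in DMSO against 1.60 and 0.926 (log2 fold change −1.62, SE 0.89, adjusted p = 0.43).

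COL8A1, a short-chain network collagen of vessel walls and eye membranes (chromosome 3, 99357318 to 99518070), was higher in both resistant libraries of each line without passing the test. It measured 5.39 and 37.7 FPKM against 58.3 and 78.3 in HCC4006 (log2 fold change 2.18, SE 1.01, adjusted p = 0.324) and 0 and 1.69 against 4.44 and 3.21 in HCC827 (2.03, SE 0.90, adjusted p = 0.342). Without DMSO library B, the HCC4006 value was 3.53 and passed (adjusted p = 0.0487), and without A it was 0.83 (adjusted p = 0.212). Its partner COL8A2 reached at most 4.19 FPKM, in HCC4006, and was listed at 0 in HCC827.

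Of the other FACIT genes, COL9A2 and COL16A1 turned on single libraries. COL9A2, a type IX chain of cartilage (chromosome 1, 40766158 to 40783488), measured 129 FPKM in DMSO HCC4006 library A and 2.47 in library B, against 2.70 and 1.08 in the resistant libraries. That 52.3-fold gap was the widest within a group for any collagen above 0 in both of its libraries. In HCC827 it went from 13.3 and 1.79 FPKM to 136 and 51.2, without overlap (log2 fold change 3.90, SE 1.02, adjusted p = 0.143). COL9A3, another type IX chain, was highest in that same HCC4006 library A (17.7 FPKM, against 0 in library B).

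COL16A1 (chromosome 1, 32117847 to 32169920), a FACIT chain found near fibrils and basement membranes, measured 75.7 and 11.6 FPKM in DMSO HCC4006 and 89.3 and 83.7 in the resistant libraries. The log2 fold change was 1.52 (SE 0.99, adjusted p = 0.459), and it hung on the DMSO libraries: without A it was 2.85 and passed (adjusted p = 0.028), and without B it was 0.19 (adjusted p = 0.316). In HCC827 the gene was listed at 0 in all libraries. COL21A1 lay between 1.98 and 5.81 FPKM in all 8 libraries.

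Among the transmembrane collagens, COL17A1 had the highest level, in HCC827. It encodes the hemidesmosome collagen by which epithelial cells hold on to the basement membrane (chromosome 10, 105791043 to 105845760), and its row also names hsa-mir-936. It measured 211 and 70.5 FPKM in DMSO HCC827 and 157 and 164 in the resistant libraries, which lay between the DMSO values (log2 fold change 0.39, SE 0.59, adjusted p = 0.76). In HCC4006 it measured 7.33 and 6.09 FPKM against 7.36 and 11.96 (0.46, SE 0.36, adjusted p = 0.516). COL13A1 was higher in both resistant HCC4006 libraries (4.08 and 12.7 against 16.8 and 32.2 FPKM) and lower in both resistant HCC827 libraries, by a narrow margin (16.4 and 5.96 against 5.61 and 5.93).

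**Figure D3:**
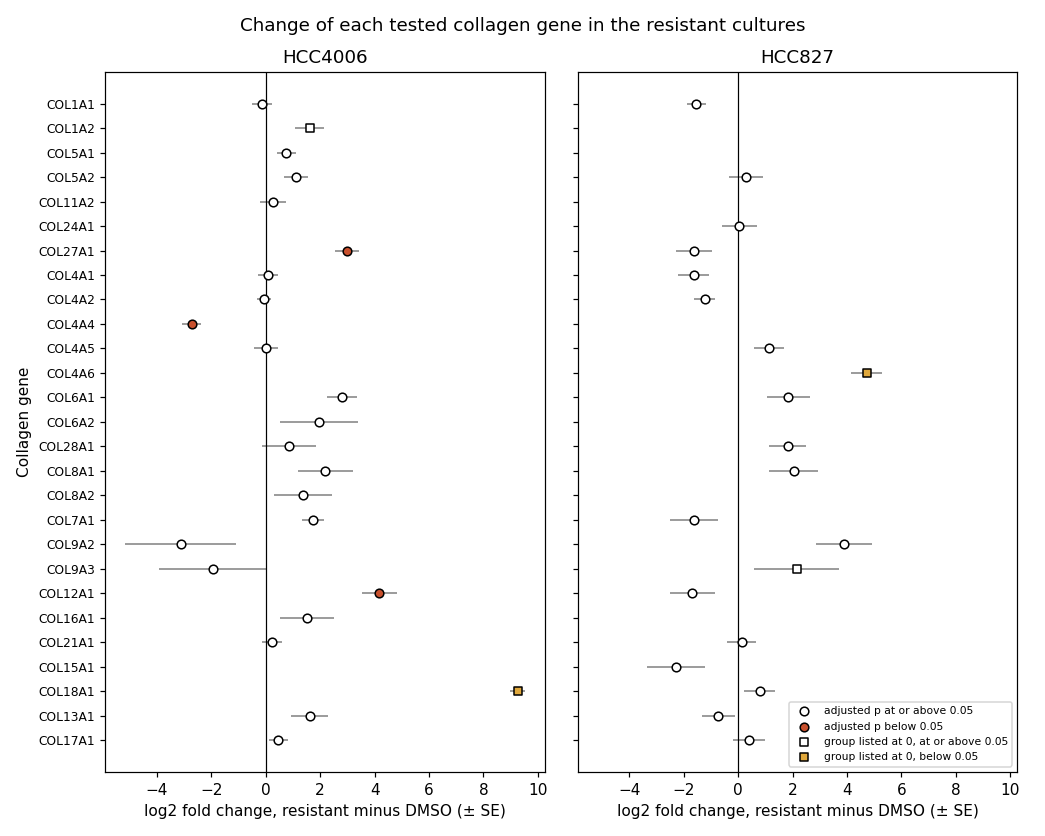
Points give the log2 fold change of each tested collagen (resistant minus DMSO, horizontal axis) with bars of 1 standard error, in HCC4006 on the left and HCC827 on the right. Filled points passed an adjusted p of 0.05. Squares mark genes with a group listed at 0, whose position depends on the pseudocount. COL12A1 and COL27A1 sit at 4.17 and 2.97 in HCC4006 and at −1.68 and −1.63 in HCC827.

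In HCC827 as a whole, 12 of the 20 tested collagens had positive log2 fold changes, with a median of 0.20 against −0.04 over all tested rows. Both resistant libraries lay above both DMSO libraries for 7 of the 20 and below for 8, against 24.3% and 24.7% of all rows. Over the 15 members above 0 in all 4 libraries the median was 0.13. Limma called none of these 15, of which 7 had an unadjusted p below 0.05, and 0.119% of all such rows.

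Whether a collagen changed differently in the 2 lines was tested as the change in HCC827 minus that in HCC4006, over all 8 libraries. Of 25 collagens tested, 5 were called, 2 positive and 3 negative, where 12.1% of all tested rows were, 6.27% positive and 5.82% negative. COL12A1 differed by −5.86 on the log2 scale (SE 0.97, adjusted p = 0.0117) and COL27A1 by −4.61 (SE 0.82, adjusted p = 0.0158), both with a higher level in resistant than in DMSO cultures in HCC4006 and a lower one in HCC827. COL27A1 also passed over rows above 0 in all 8 libraries (adjusted p = 0.0417), where 1.45% of rows did. The other 3 were COL18A1, COL4A6 and COL4A4, each with a group or a line listed at 0. For COL4A4, at 0 in all HCC827 libraries, the value only repeats its HCC4006 change with the sign turned, and that of COL4A6 likewise repeats its HCC827 change.

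These 2 calls rested on some single libraries. COL12A1 was not called without HCC4006 resistant A (adjusted p = 0.0665), resistant B (0.087) or HCC827 resistant B (0.0646). COL27A1 was not called without HCC4006 resistant A (0.0617), resistant B (0.0917), HCC827 DMSO A (0.0503) or HCC827 resistant B (0.0584). COL7A1 showed the same opposite order but did not pass (−3.36, SE 1.04, adjusted p = 0.103), except without HCC827 DMSO library B (−4.44, adjusted p = 0.0231) and with quantile normalization (−4.07, adjusted p = 0.0264). COL9A2 passed (9.75, adjusted p = 0.0273) without DMSO library B of HCC4006.

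By library order alone, 4 of the 25 collagens (COL7A1, COL12A1, COL13A1 and COL27A1) lay above DMSO in resistant HCC4006 and below it in resistant HCC827, against 6.45% of all rows, and none showed the converse, against 6.76%. COL5A2, COL6A1 and COL8A1 were above DMSO in the resistant libraries of both lines, 3 of 25 against 5.53% of all rows, though the HCC827 change of COL5A2 turned negative under quantile normalization (−0.90). No collagen was below DMSO in both.

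Markers of other cells and of epithelium were read beside the HCC4006 changes, and their part in the collagen results was not tested. CDH1, the epithelial cadherin, measured 1518 and 945 FPKM in DMSO HCC4006 and 3.03 and 3.29 in its resistant libraries. The fibroblast list summed to 2.57 and 2.59 FPKM before and 21.9 and 26.2 FPKM after resistance, and 1 of its 6 members, PDGFRB, made up all of the latter. DCN, LUM, THY1, FAP and PDPN were listed at 0 in both resistant HCC4006 libraries. The endothelial list (4 of 5 found) summed to at most 4.08 FPKM and the leukocyte list to at most 3.90 FPKM in any library. PTPRC, CD3E and CDH5 were listed at 0 in all 8 libraries.

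Collagen chains are hydroxylated, folded, trimmed and cross-linked by a set of enzymes, and cells bind the product through integrins and DDR kinases. Of 42 genes in this list, 37 were tested in HCC4006, with 4 called higher, 1 lower and 32 not called, and a median log2 fold change of 0.46. In HCC827, 32 were tested, with 1 called higher, 1 lower and 30 not called (median 0.08). The background shares are those given above for each line.

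The most abundant members over the 8 libraries were ITGB1, the common chain of collagen-binding integrins, P4HB, a subunit of prolyl 4-hydroxylase, and PPIB, a folding enzyme of the endoplasmic reticulum, none of them called. ITGB1 lay between 6851 and 14466 FPKM. P4HB and PPIB were both highest in DMSO HCC4006 library A, at 19238 and 12367 FPKM, against 7441 and 3970 in library B. Without library B, PPIB was called lower in HCC4006 (log2 change −1.85, adjusted p = 0.0337), and without library A its change was −0.21 (adjusted p = 0.302).

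Among the enzymes, P3H1 rose in HCC4006. It is listed under its older name LEPRE1 and encodes a prolyl 3-hydroxylase of fibrillar collagen. Its DMSO values were 257 and 221 FPKM and its resistant values 627 and 798 (log2 fold change 1.57, SE 0.23, adjusted p = 0.0371). LOXL2, a cross-linking enzyme whose row also names ENTPD4, went from 1075 and 947 FPKM to 2156 and 2274 (1.13, SE 0.19, adjusted p = 0.049). P4HA3, a prolyl 4-hydroxylase subunit, was listed at 0 in DMSO HCC4006 and at 52.2 and 92.2 FPKM in its resistant libraries (adjusted p = 0.00238), and PPME1 on the same locus was at 0 in the same libraries and at 302 and 306 FPKM in the resistant ones.

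Of the receptors, ITGA11, a chain of a fibrillar collagen receptor of connective tissue cells, rose in HCC4006: its DMSO values were 0.885 and 0.481 FPKM and its resistant values 19.7 and 22.5 (log2 fold change 4.21, SE 0.35, adjusted p = 0.00742). It was also called over rows above 0 alone (adjusted p = 0.0451), but not without resistant library A (0.135) or B (0.145), and it was listed at 0 in HCC827. DDR1, a collagen-binding receptor kinase of epithelia, fell in HCC4006, with 2922 and 2090.1 FPKM in DMSO and 624 and 829 under resistance (log2 change −1.78, SE 0.29, adjusted p = 0.0467). P3H1 was called with all 4 libraries but not without any one of them (adjusted p 0.0828 to 0.312), nor was DDR1 (0.0714 to 0.412), and LOXL2 was not when resistant A (0.330), resistant B (0.356) or DMSO A (0.0513) was left out. Over rows above 0 alone these 3 were not called (0.0879, 0.0956 and 0.127 for P3H1, DDR1 and LOXL2). DDR1 also missed the threshold with all 8 libraries fitted (0.143), no filter on low values (0.0521) or quantile normalization (0.0548), and LOXL2 with a pseudocount of 1 (0.0514).

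In HCC827 the pair called was PCOLCE2 and LOXL3. PCOLCE2, which enhances the trimming of procollagen, fell: DMSO cells gave 183 and 149 FPKM and resistant cells 23.1 and 14.9 (log2 change −3.12, SE 0.36, adjusted p = 0.0109). In HCC4006 its order was the opposite, 25.3 and 63.2 against 163 and 165 FPKM, without passing (2.02, SE 0.51, adjusted p = 0.122) unless DMSO library A (0.0442) or B (0.0177) was left out or all 8 libraries were fitted together (0.0458), and the difference between the lines was −5.15 (SE 0.66, adjusted p = 0.00378). That difference was called whichever library was left out, whereas the HCC827 call was lost without any one of its 4 libraries (adjusted p 0.0951 to 0.202). Another row on the locus of PCOLCE2 measured 1828 and 1087 FPKM in DMSO HCC827 and 2104 and 2083 in the resistant libraries. In HCC4006 that row measured 1965 and 1516 FPKM against 1279 and 1518, with overlapping groups. Whether the split of fragments between these rows enters the PCOLCE2 values was not tested. LOXL3, a cross-linking enzyme, was at 0 in all 4 DMSO libraries. It reached 5.94 and 31.4 FPKM in resistant HCC4006 and 21.3 and 26.7 in resistant HCC827 (called in HCC827, adjusted p = 0.00383, but not without DMSO A, 0.0812, or DMSO B, 0.0665). In HCC4006 it was not called (0.0668), but it was without resistant library A (0.0195) or B (0.0227), with a pseudocount of 0.1 (0.0344) and in the fit to all 8 libraries (0.00785). AUP1 and HTRA2, on the same locus, were listed at 0 in the same 4 libraries and lay between 165 and 584 FPKM in the others.

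**Figure D4:**
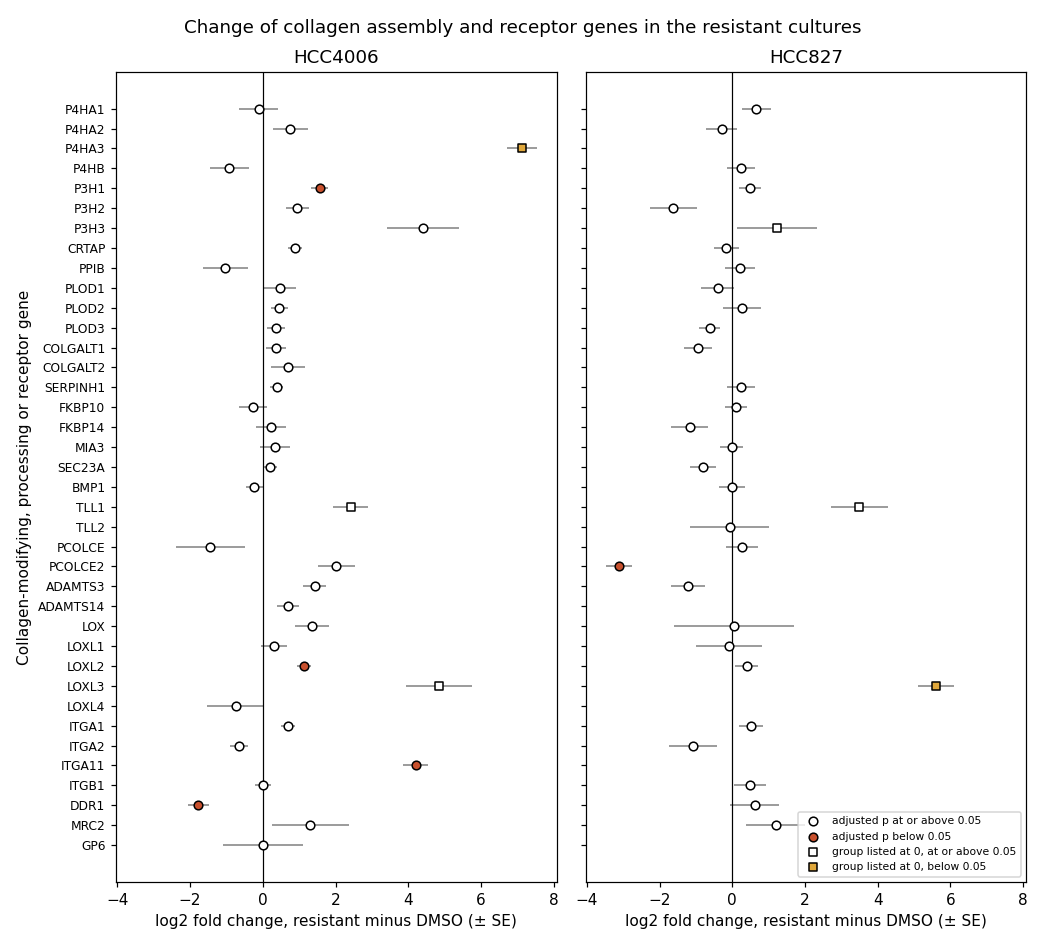
Points give the log2 fold change (resistant minus DMSO, horizontal axis) with bars of 1 standard error for the collagen-modifying, processing and receptor genes tested, in HCC4006 on the left and HCC827 on the right. Filled points passed an adjusted p of 0.05 and squares mark genes with a group listed at 0. PCOLCE2 sits at −3.12 in HCC827 and at 2.02 in HCC4006. Among genes without a group at 0, the points furthest right in HCC4006 are P3H3, a prolyl 3-hydroxylase that was not called (4.40), and ITGA11 (4.21). DDR1 lies furthest left there (−1.78).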

How the data were processed

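PolyA RNA of 8 libraries was sequenced from TruSeq libraries, per the labels' protocols. The deposited values are FPKM per gene in 1 table per line. TopHat 1.4.1, Cufflinks 1.3.0, Cuffdiff and hg19 are listed in the submitters' processing notes. Not given in the sources used here are the options, the annotation and the use of strand. FPKM keep no read totals, so depth and counting intervals are unknown, and rows sharing a locus split fragments in a way the tables do not show.

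From these values, limma 3.58.1 in R 4.3.3 tested log2(FPKM + 0.5), with a variance trend, over all rows with a mean of at least 0.5 FPKM in the fit. Each line was fitted alone and the difference between lines over all 8 libraries, with Benjamini-Hochberg adjustment over all rows. A fold change is on the log2(FPKM + 0.5) scale and understates that of low genes. The procedure was tested on simulated data with known changes. These were built from rows above 0 in every library of a line, with the same noise for all rows. Groups listed at 0 and wide gaps between the libraries of a group were therefore not covered.

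Named were collagens called in either line or between lines, those averaging at least 50 FPKM in a group, and the partner chains of such collagens in types I, IV, V, VI, VIII and XI (no type XI gene qualified). Of the 42 assembly genes, those called within a line and the 3 highest were named. Genes named outside this rule, such as COL11A2, COL24A1, COL13A1, COL28A1, COL15A1, COL9A3, COL21A1 and ADAMTS3, were chosen after their values were seen. Members and lists were chosen with earlier results of these data known. Column letters A and B do not match the labels' replicate numbers, and columns were assigned to groups only. COL29A1 was placed with type VI. The value of 1 marker gene is not reported here. Other pseudocounts, filters, quantile normalization, a letter block and leaving out each library were tried.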

Additional observations from a re-analysis of the deposited data

Results flagged for a closer look

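The change in HCC827 minus that in HCC4006 was called by limma for 5 collagens and 3 of the named assembly genes. Of these, 3 had values above 0 in both groups of each line, so that the test compared a change in one line with a change in the other. COL12A1 differed by −5.86 and COL27A1 by −4.61 on the log2 scale, and PCOLCE2 by −5.15. For COL27A1 and PCOLCE2 all 8 libraries were above 0.

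The other named genes called for this difference rest on groups listed at 0, so their fitted values depend on the pseudocount and are no fold changes. Where a line is at 0 throughout, the value only repeats the other line's change (with its sign turned for a change in HCC4006) and is no test of a difference. COL18A1 gave −8.48, with its HCC4006 DMSO libraries at 0, as were those of SLC19A1 on the same locus. P4HA3 gave −7.13 and ITGA11 −4.21, with HCC827 at 0 throughout. The DMSO HCC4006 libraries of P4HA3 were at 0 too, as were those of PPME1 on the same locus. COL4A4 gave 2.73, with HCC827 at 0 throughout, and COL4A6 gave 4.72, with HCC4006 and DMSO HCC827 at 0, as was ATG4A on the same locus.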

How the results depend on the processing

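Of 1015 alternative values of the named genes, 914 kept their direction and side of the threshold, 55 lost a call, 17 gained one and 29 changed sign. Over rows above 0 alone, the collagens called numbered 0 in HCC4006 (5 at an unadjusted p below 0.05), 0 in HCC827 (7 at that level) and 1 between lines, and the assembly genes 1 in HCC4006 and 0 in HCC827 (4 at an unadjusted p below 0.05); such fits hold fewer genes. The fit over all 8 libraries called 2 collagens in HCC827.

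Leaving out 1 library gave 1 to 4 collagens in HCC4006, 0 to 2 in HCC827 and 2 to 7 between lines, 3 to 6 assembly genes in HCC4006 and 0 to 3 in HCC827. Both counts of 0 in HCC827 came without DMSO A or B, where 5 and 4 collagens and 4 and 6 assembly genes had an unadjusted p below 0.05 in limma. The lone library left in a group is assumed to vary like the other group. The HCC4006 collagen count was 1 without resistant A or B. The ratio of total collagen FPKM ranged from 1.33 to 1.89 in HCC4006 and from 0.898 to 1.498 in HCC827.

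Changes of sign were all in values that were not called. With quantile normalization, which moved the median of all rows by −0.18 in HCC4006 and −0.20 in HCC827, the log2 fold change was 0.068 for COL4A2 and −0.19 for COL4A5 in HCC4006, −0.90 for COL5A2 and −0.029 for P4HB in HCC827, and the difference between lines was 0.32 for COL17A1 and −0.15 for ITGB1. With a pseudocount of 0.1 that of COL8A1 was 0.96. Without 1 library, HCC4006 values ranged from −0.54 to 0.25 for COL1A1, −0.27 to 0.42 for COL4A1, −0.31 to 0.21 for COL4A2, −0.39 to 0.40 for COL4A5 and −0.14 to 0.17 for ITGB1. HCC827 values ranged from −0.40 to 1.18 for COL17A1, −0.11 to 0.59 for P4HB, −0.12 to 0.54 for PPIB and −0.13 to 1.35 for DDR1. Differences between lines ranged from −0.86 to 0.71 for COL17A1, −1.497 to 1.20 for COL8A1 and −0.39 to 1.92 for LOXL3. The cause was not tested.

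The column letters share only a letter: deviations of same-letter libraries correlated at −0.0426 in HCC4006 and 0.149 in HCC827. With the letter as a replicate block, 2 collagens were called in HCC4006, 2 in HCC827 and 4 between lines, and 2 assembly genes in each line. In that block COL27A1 (adjusted p = 0.0797) and COL4A4 (0.0694) were not called in HCC4006, nor were P3H1 (0.0978), LOXL2 (0.167) and DDR1 (0.0949), COL4A4 was not called between lines (0.097), and COL9A2 was called in HCC827 (0.00574). Depth is unknown, and 2 libraries a group limit every comparison.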
